A study of Mus musculus with 6 samples.

Results

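The PARP family of ADP-ribosyltransferases was examined on Agilent mouse expression arrays in 1 colour, through every non-control probe that the array files name Parp2, Parp3, Parp4, Parp8, Parp9, Parp10, Parp11, Parp12, Parp14 or Dtx3l. These 10 genes, of 35527 gene names in the files, were covered by 14 of 55681 probes, with 1 probe for 7 genes, 2 probes each for Parp4 and Parp9 and 3 probes for Dtx3l. The RNA came from 3T3 cells (an established fibroblast line from mouse embryos) given 50 nM of GapmeR Ntep or of GapmeR control for 48 h. This is the dose of the sample labels; the study's supplement writes it in another form, and which holds was not settled here. GapmeRs are antisense oligonucleotides through which RNase H cuts the RNA they pair with, here the long noncoding RNA Ntep, so both groups had received an oligonucleotide and differed in its sequence. Each of 3 independent experiments gave 1 array per GapmeR (n = 3 per group), and the replicate number names the experiment.

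PARP enzymes take ADP-ribose from NAD and attach it to proteins or nucleic acids, some as long chains (Parp2) and most as a single unit. A subset is known to be induced by interferon and to act against viruses. Parp9 is catalytically weak and works in a complex with Dtx3l, a ubiquitin ligase of the deltex family, and Parp14 carries macrodomains that bind ADP-ribose. Parp10, Parp11 and Parp12 add single ADP-ribose units. Parp2 and Parp3 are activated by DNA breaks, Parp4 belongs to the vault particle, and Parp8 is a little studied mono-ADP-ribosyltransferase. Accordingly, Parp9, Dtx3l, Parp14, Parp10, Parp11 and Parp12 are called the interferon-linked members below, and Parp2, Parp3, Parp4 and Parp8 the other members.

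The RefSeq promoter table for GRCm38.p6 matched 7 of the 10 genes with 8 windows of 300 bases, each from 250 bases before to 50 bases after an annotated start. It has entries for Parp2, Parp3, Parp4, Parp8, Parp11, Parp12 and Dtx3l. Parp9, Parp10 and Parp14, all interferon-linked, have none, so the search did not cover them. The windows were searched on both strands for GAAANNGAA, a short form of the element bound by interferon-activated factors. It was held by 8.56% of the 32851 windows of the table and by 2 of the 8 windows of members. The 250 bases before the start are shown, 5′ to 3′ on the gene's strand and with matches in capitals, for both windows with a match and for the member with the deepest fall and the ubiquitin ligase Dtx3l, which had none.
Parp4 (chr14:56575369-56575618, + strand): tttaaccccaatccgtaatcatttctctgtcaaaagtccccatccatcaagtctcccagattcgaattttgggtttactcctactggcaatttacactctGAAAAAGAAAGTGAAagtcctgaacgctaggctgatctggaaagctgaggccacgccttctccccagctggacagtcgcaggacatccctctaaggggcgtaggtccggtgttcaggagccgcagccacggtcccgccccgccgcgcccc
Parp11, upstream start (chr6:127446590-127446839, + strand): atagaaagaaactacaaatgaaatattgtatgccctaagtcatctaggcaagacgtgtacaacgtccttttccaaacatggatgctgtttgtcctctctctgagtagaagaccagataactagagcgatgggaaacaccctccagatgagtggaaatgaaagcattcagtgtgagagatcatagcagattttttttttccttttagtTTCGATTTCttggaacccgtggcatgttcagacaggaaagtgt
Parp12 (chr6:39118350-39118599, - strand): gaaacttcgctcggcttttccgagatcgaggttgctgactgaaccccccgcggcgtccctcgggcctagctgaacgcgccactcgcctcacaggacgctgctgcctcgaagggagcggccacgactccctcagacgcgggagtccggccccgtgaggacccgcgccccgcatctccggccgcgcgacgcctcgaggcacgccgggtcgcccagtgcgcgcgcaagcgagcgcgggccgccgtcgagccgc
Dtx3l (chr16:35939028-35939277, - strand): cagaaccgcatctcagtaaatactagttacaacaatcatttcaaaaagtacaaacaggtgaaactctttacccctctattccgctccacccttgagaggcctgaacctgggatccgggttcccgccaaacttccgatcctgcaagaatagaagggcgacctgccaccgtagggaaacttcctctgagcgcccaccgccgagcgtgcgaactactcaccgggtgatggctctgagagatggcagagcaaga
The Parp4 window held 2 overlapping matches, GAAAAAGAA from 150 bases and GAAAGTGAA from 144 bases before the start. The Parp11 window held 1 match on the other strand, TTCGATTTC, from 43 bases before the start, and its window at a second start held none. The signal of Parp4 and that of Parp11 behaved differently, as given below.

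The scanner files mark 43.7% to 53.3% of the probes of an array as well above background, and none as saturated. All 14 member probes were well above background on all 6 arrays, and all passed the filter on dim probes. Ntep has 1 probe in the files, under the name A630089N07Rik, at chr16:98283712-98283771 of mm9. It read 472, 91.5 and 226 with GapmeR Ntep in experiments 1, 2 and 3, and 271, 272 and 361 with GapmeR control. The groups overlapped and experiment 1 went against its label, so each array goes by its label here and directions follow the labels. This gave a log2 difference of -0.48 (SE 0.58, limma adjusted p = 0.632). Signals are quantile-normalized intensities in linear units, differences are log2 values of the arrays labelled GapmeR Ntep minus those labelled GapmeR control, and a probe was called at a Benjamini-Hochberg adjusted p under 0.05 over the 30990 probes tested. Signals of different probes depend on the probe, so each is compared between groups only.

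All 14 member probes were lower on average with GapmeR Ntep, and 9 of them, from 8 of the 10 genes, were called. None was called higher in limma, where none had a difference above 0. Among all tested probes, 3.21% were called lower and 2.09% higher. All 6 interferon-linked genes fell, and so did Parp3 and Parp8 among the other members, whereas Parp2 and Parp4 were not called. In RNA of a whole culture, fewer cells that use a gene and less of its RNA per cell cannot be told apart. No array came from cells without a GapmeR, so lower with GapmeR Ntep cannot be told from higher with GapmeR control. At a fold change of at least 2 with an unadjusted p under 0.01, 9 probes of the same 8 genes were lower, against 5.06% of all tested probes. The signals of the groups did not overlap for 10 of the 14 probes, all lower, against 15.1% of all tested probes. With the replicate number as a block, the same 9 probes were called, among 4292 of the 30990 tested probes in place of 1642. The unpaired calls after adjustment, and those of all genes below, depended on single arrays. Without GapmeR control replicate 2, GapmeR control replicate 3 or GapmeR Ntep replicate 3, 0 of the 14 probes were called by limma. In these cases 0, 5 and 0 probes of the whole array were called. Without GapmeR control replicate 1, the Parp12 probe alone was called, and without GapmeR Ntep replicate 1 those of Parp12 and Parp14. The same 9 probes passed the fold change and unadjusted limit whichever of these arrays was left out. Over all tested probes, 1583 to 2713 passed it there, in either direction. The methods' t-test called 1 of the 14 after adjustment, and the same 9 at the fold change and unadjusted limit. Of all 30990 tested probes it called 285 and 1457 at these limits, in either direction.

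**Figure D1:**
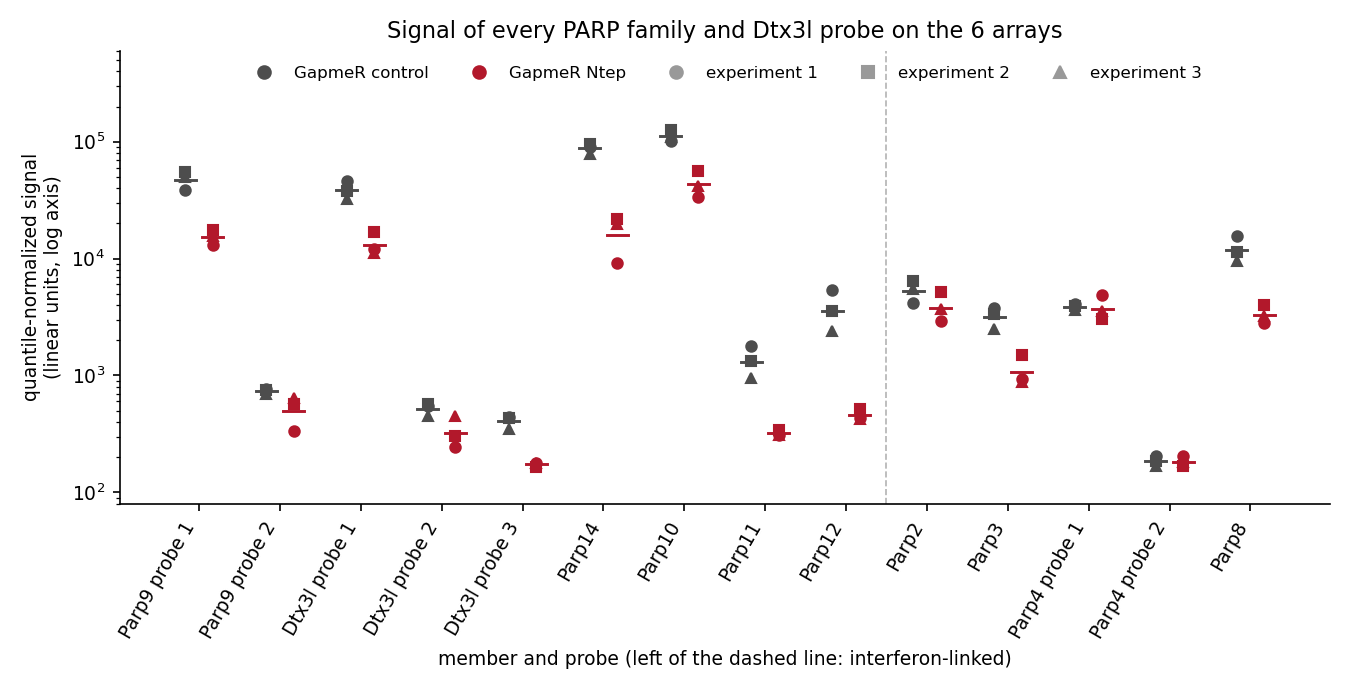
Quantile-normalized signal (linear units on a log axis) of the 14 probes on the 6 arrays, with GapmeR control in grey, GapmeR Ntep in red, a symbol per experiment and bars at the geometric mean of 3 arrays. Red and grey points separate for 10 probes and overlap for Parp2, both Parp4 probes and probe 2 of Dtx3l; probes are numbered by their mean signal and levels are not comparable between probes.

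Parp9 is known as the partner of Dtx3l in an interferon-induced ubiquitin ligase complex. Its brightest probe, assigned to NM_030253 at chr16:35972577-35972636 of mm9, gave 13038, 17578 and 15653 with GapmeR Ntep and 38768, 55338 and 49671 with GapmeR control. Every GapmeR Ntep array lay below every control array, and the group means were 15423 ± 2279 and 47926 ± 8422 (SD, n = 3 each). Parp9 fell by 1.63 on the log2 scale (SE 0.22, limma adjusted p = 0.026), which is 3.1-fold. The differences within experiments were -1.57, -1.65 and -1.67, the narrowest range of the 10 brightest probes.

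Dtx3l, the ubiquitin ligase, fell by a like amount. Its brightest probe (NM_001013371, chr16:35926655-35926714) gave 12157, 16715 and 11070.4 with GapmeR Ntep and 45897, 37815 and 32454 with GapmeR control, without overlap. This was a log2 difference of -1.55 (SE 0.24, limma adjusted p = 0.0307). A further probe, assigned to the transcript AK090152 at chr16:35932352-35932411, gave 178, 166 and 177 against 441, 428 and 348, and also fell by 1.22 on the log2 scale (SE 0.17, limma adjusted p = 0.0281).

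The remaining probe of either gene was not called. For Dtx3l this was a second probe of NM_001013371 at chr16:35932885-35932944, with 242, 301 and 449.7 against 550.3, 567 and 447. The GapmeR Ntep array of experiment 3 lay level with its control there, so the groups overlapped (log2 difference -0.70, 95% interval -1.36 to -0.04, limma adjusted p = 0.181). For Parp9 it was a probe assigned to AK037903 at chr16:35968243-35968302, with 334, 570.5 and 639 against 761, 749.8 and 688. These groups did not overlap, but the log2 difference of -0.56 (95% interval -1.24 to 0.11, limma adjusted p = 0.268) was not called. Within arrays, the brightest Parp9 probe fell by 1.07 more on the log2 scale than the AK037903 probe, with no overlap between the groups. The brightest Dtx3l probe fell by 0.85 more than its second probe, again without overlap, and by 0.33 more than the AK090152 probe, with overlap. The exact two-sided permutation p of these 3 comparisons was 0.1, 0.1 and 0.3, and 3 against 3 arrays cannot give less than 0.1.
The last 30 of the 60 bases of these probes are shown, all in lower case because no motif is marked, to show that the probes of a gene read different stretches of its transcripts.
Parp9, NM_030253 probe: ctaggacaacaggatgatttcaggttttct
Parp9, AK037903 probe: ggcatgctgtgtgtatgctgtctaaataaa
Dtx3l, brightest NM_001013371 probe: gtggagggctcaatgacatttggatttttt
Dtx3l, second NM_001013371 probe: acacaataccaagtttgccgacaactttaa
Dtx3l, AK090152 probe: taaaagatggcatccaaacagtaagtgtgc
In which exon or UTR each probe lies was not analysed here.

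Parp14, the large macrodomain PARP and a known cofactor of Stat6, had a lower difference than its chromosomal neighbours Parp9 and Dtx3l in each of the 3 experiments and also varied more between them. Its probe (NM_001039530, chr16:35832992-35833051) gave 9112, 21948 and 19612 with GapmeR Ntep against 90516, 96222 and 78608. The groups lay far apart, with the array of experiment 1 the lowest. Parp14 fell by 2.48 on the log2 scale (SE 0.36, limma adjusted p = 0.0287), which is 5.59-fold, and its differences within experiments were -3.31, -2.13 and -2.00.

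Parp12, a CCCH zinc finger PARP with known antiviral activity, had the deepest fall of the 10 genes. Its probe (NM_172893, chr6:39036828-39036887) gave 430.1, 519 and 419.7 with GapmeR Ntep against 5362, 3529.8 and 2407 with GapmeR control. The GapmeR Ntep arrays lay close together, whereas the control arrays spread over more than a doubling, so most of the variation between experiments came from the control side. Parp12 fell by 2.98 on the log2 scale (SE 0.32, limma adjusted p = 0.022), which is 7.86-fold.

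Parp11, a mono-ADP-ribosyltransferase with a WWE domain, showed the same layout. Its probe (NM_181402, chr6:127428092-127439947, a genomic span of 11856 bases for 60 bases of probe) gave 312, 338 and 309 against 1777, 1338 and 954. The GapmeR Ntep arrays were again within a narrow range and the control array of experiment 1 was the highest. The log2 difference was -2.04 (SE 0.26, limma adjusted p = 0.0246).

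Parp10, which carries ubiquitin interaction motifs beside its catalytic domain, had the smallest fall among the interferon-linked genes. Its probe (NM_001163576, chr15:76063433-76063492) gave 33765, 56296 and 42023 against 100755, 126154 and 108957. Experiment 2 was the brightest in both groups, and the groups did not overlap. The log2 difference was -1.37 (SE 0.24, limma adjusted p = 0.0363), and its 95% interval of -1.95 to -0.79 overlapped that of every other interferon-linked gene except Parp12.

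**Figure D2:**
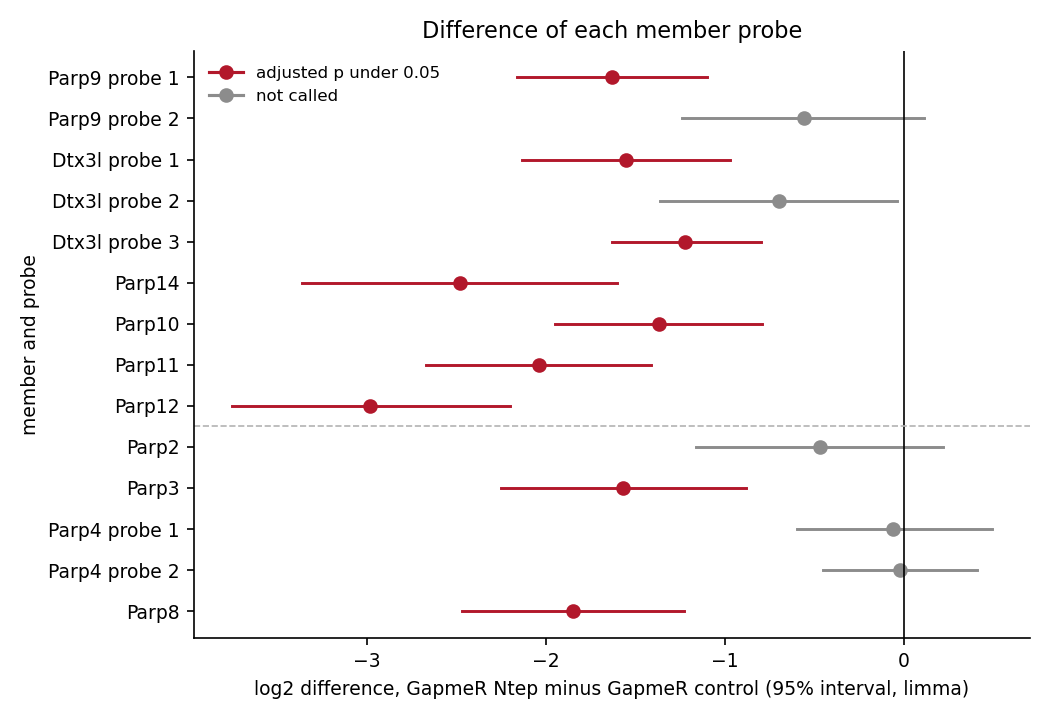
Log2 difference (GapmeR Ntep minus GapmeR control) of the 14 probes with its 95% interval from limma, in red where the adjusted p was under 0.05 and with a dashed line between interferon-linked and other members. The 9 called probes lie between -2.98 and -1.22, and the intervals of Parp2, both Parp4 probes and the AK037903 probe of Parp9 (probe 2) include 0.

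Among the members not counted as interferon-linked, Parp8 and Parp3 fell, with differences inside the range of the interferon-linked genes. The Parp8 probe (NM_001081009, chr13:117643922-117643981) gave 2811, 3975 and 3194 with GapmeR Ntep against 15653, 11331 and 9489.6, without overlap. Its log2 difference was -1.85 (SE 0.25, limma adjusted p = 0.0276), a lower value than those of Parp9, Dtx3l and Parp10. Parp3, which is known to act in the joining of broken DNA ends, gave 932, 1483 and 871 against 3766, 3324 and 2504 at its probe (NM_145619, chr9:106372743-106372802). All 3 GapmeR Ntep arrays were again below all 3 controls, with a log2 difference of -1.57 (SE 0.28, limma adjusted p = 0.0384). The Parp3 call was the least firm of the 8: it was lost without normalization between arrays (adjusted p = 0.0589), where that of Parp10 was lost too (0.0569), and when variances were moderated over all probes (0.057), a setting chosen after seeing the data.

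Parp2, the enzyme that shares the DNA break response with Parp1, was lower in each experiment but not called. Its probe (NM_009632, chr14:51439134-51439365) gave 2924, 5124 and 3679.6 against 4152, 6416 and 5494, and the groups overlapped. Both groups were lowest in experiment 1 and highest in experiment 2, and the differences within experiments were -0.51, -0.32 and -0.58. The log2 difference was -0.47 (95% interval -1.16 to 0.22, limma adjusted p = 0.354). This interval of the unpaired fit holds both no change and a fall of more than 2-fold. With the replicate block the SE was 0.14 in place of 0.28, and the probe was still not called (limma adjusted p = 0.0988). With array weights the Parp2 probe was called (log2 difference -0.60, limma adjusted p = 0.0453), in a setting that called 10260 of the 30990 tested probes.

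Parp4, the vault PARP, was the member with the smallest difference. Its brightest probe (NM_001145978, chr14:57278506-57278565) gave 4838, 3009.5 and 3535 with GapmeR Ntep against 4080.3, 3934 and 3606. The GapmeR Ntep arrays held both the highest and the lowest value of the 6, and the within-experiment differences were 0.25, -0.39 and -0.03. The log2 difference was -0.06 (95% interval -0.60 to 0.49, limma adjusted p = 0.895). The second probe of Parp4, at chr14:57256794-57260137, gave 204, 167 and 180.1 against 206, 185 and 168, with a log2 difference of -0.02 (95% interval -0.45 to 0.41, limma adjusted p = 0.953). Both intervals leave out a change of 2-fold in either direction, but the sign of these differences was not settled, since it turned for the second probe under 75th percentile scaling (0.08), normexp background correction (0.01) and array weights (0.02).

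With the brightest probe per gene, the median log2 difference was -1.84 over the 6 interferon-linked genes and -1.02 over the 4 other members, beside 0.06 over all tested probes. In experiments 1, 2 and 3 the medians were -2.21, -1.82 and -1.65 for the interferon-linked genes, and -1.26, -0.78 and -1.05 for the others. The interferon-linked median was the lower in each experiment. The genes themselves were not separated by this division: the interferon-linked differences ran from -2.98 to -1.37 and the others from -1.85 to -0.06, so that Parp8 and Parp3 lay within the interferon-linked range. Under 75th percentile scaling, the median of all probes moved up by 0.16 to 0.22, and relative to it the interferon-linked median was -1.97 and that of the others -1.23.

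**Figure D3:**
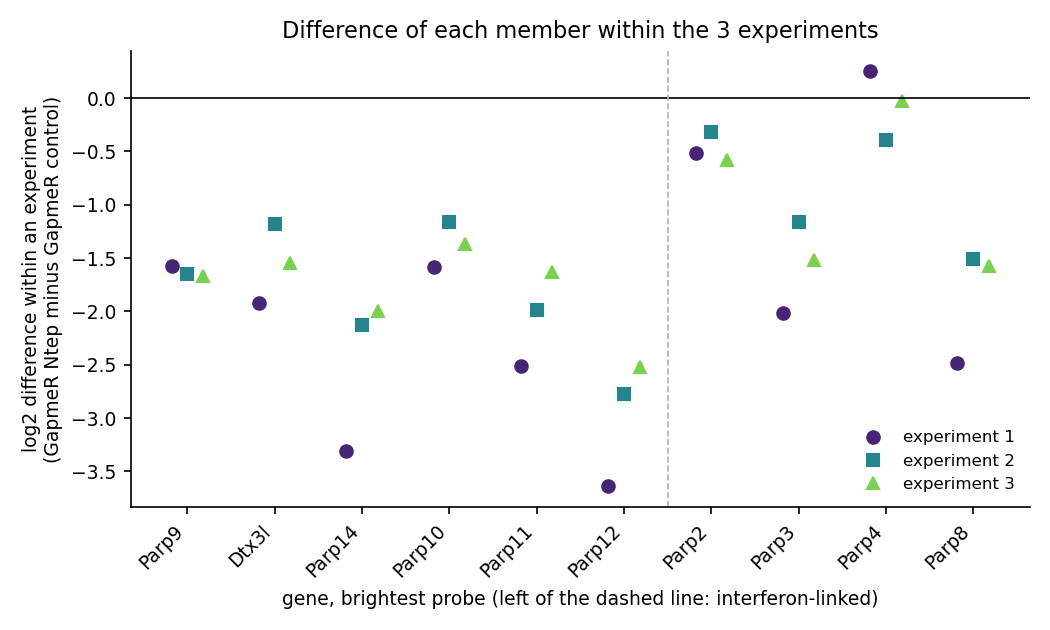
Log2 difference within each of the 3 experiments (GapmeR Ntep minus GapmeR control array of the same number) for the brightest probe of the 10 genes, with a symbol and colour per experiment. All points but that of Parp4 in experiment 1 (0.25) lie below 0, and experiment 1 has the deepest difference for Dtx3l, Parp14, Parp10, Parp11, Parp12, Parp3 and Parp8.

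Among genes with a tested probe, Parp14, Dtx3l and Parp9 follow each other in the chromosome 16 gene order of the RefSeq table for GRCm38.p6, and Parp9 and Dtx3l are read from opposite strands. The nearest genes with a tested probe on either side were therefore compared with them. Beyond Parp14, Hspbap1, which encodes a partner of the small heat shock protein Hspb1, gave 46.3, 39.5 and 34.2 against 66.7, 56.7 and 38.1, and was well above background on 1 of 6 arrays (log2 difference -0.40, limma adjusted p = 0.393). The next gene on that side, Gm5963, differed by 0.00 (adjusted p = 0.989). On the side of Parp9, Kpna1, an importin of nuclear transport, gave 19954, 10936 and 13015 against 14715, 5930.2 and 6891. It was higher with GapmeR Ntep in each experiment, but the groups overlapped (log2 difference 0.75, SE 0.42, adjusted p = 0.32). Wdr5b gave 260.0, 274 and 209 against 777, 455 and 429, without overlap, and its difference of -1.11 was not called without pairing (adjusted p = 0.0753) but was with the replicate block (limma adjusted p = 0.0488). Fam162a differed by -0.41 (adjusted p = 0.295). Of these 8 genes, the unpaired fit thus called the 3 members, and the blocked fit, which called 4292 of all 30990 tested probes, these and Wdr5b.

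**Figure D4:**
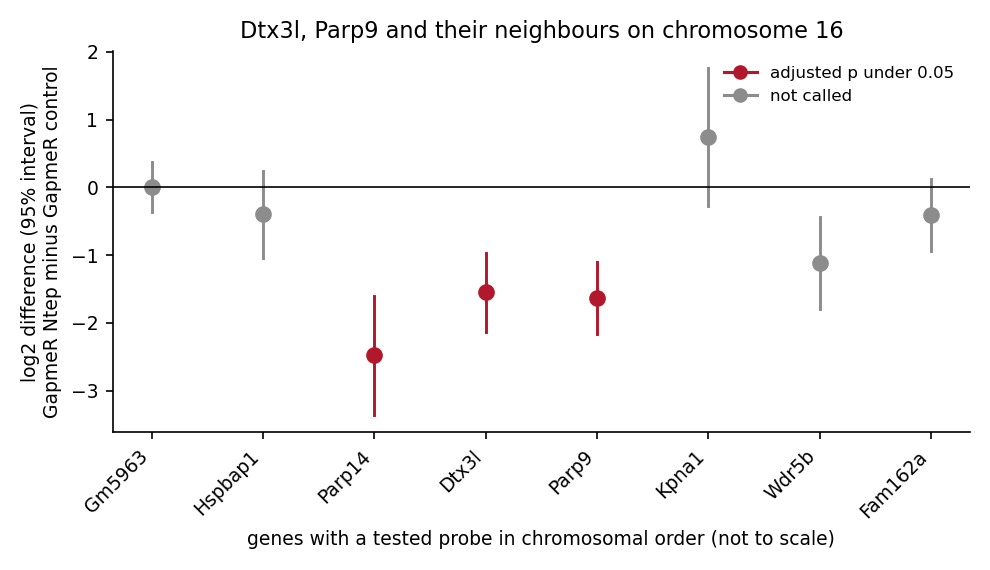
Log2 difference (GapmeR Ntep minus GapmeR control) with its 95% interval for Dtx3l, Parp9 and the nearest 3 genes with a tested probe on each side, in chromosomal order and not to scale. Parp14 (-2.48), Dtx3l (-1.55) and Parp9 (-1.63) lie below their neighbours, and Kpna1 (0.75) lies above 0 with an interval that includes it.

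Of 7 further ADP-ribosyltransferase genes (Parp1, Parp6, Parp16, Tiparp, Zc3hav1, Tnks and Tnks2), 0 were called by their brightest probe, with a median of -0.16, and 1 was lower at an unadjusted p under 0.05 both in limma and in the methods' t-test. That gene was Zc3hav1, a catalytically inactive, interferon-induced antiviral PARP, with 2066, 2096 and 2317 against 3970.1, 3266 and 3295. Its groups did not overlap, and its log2 difference of -0.70 (SE 0.17) had a limma adjusted p of 0.0691. Tiparp, a target of the aryl hydrocarbon receptor, differed by -0.01 (SE 0.21), and Tnks, which acts at telomeres and in Wnt signalling, by -0.16 (SE 0.29). Parp16, anchored in the endoplasmic reticulum, had the largest difference upwards, 0.12.

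Among genes that remove or read ADP-ribose, 0 of 10 were called by limma, with 1 at an unadjusted p under 0.05 there and in the methods' t-test, and the median was -0.05. The most negative difference was that of Macrod1, a mitochondrial ADP-ribose hydrolase, with 690.3, 2906 and 1963 against 2191, 6863 and 8476 (log2 difference -1.67, SE 0.72, adjusted p = 0.216). Its difference was negative in each experiment, at -1.67, -1.24 and -2.11, and with the replicate block Macrod1 was the 1 gene of the list called (limma adjusted p = 0.0337). The block called 4292 of all 30990 tested probes, a share to be set beside each block call in these lists. The highest was that of Aplf, a DNA repair factor that binds poly(ADP-ribose), at 0.69 (adjusted p = 0.0788). Among 8 tested genes of NAD supply, limma called 0 lower and 1 higher, with 2 lower and 2 higher at an unadjusted p under 0.05, and the median was 0.07. The methods' t-test called 1 after adjustment and 3 at an unadjusted p under 0.05. In limma the called gene was Nmnat1, the nuclear enzyme that makes NAD. It gave 3043, 2829 and 2922 against 1429, 1457 and 1569, without overlap (log2 difference 0.98, SE 0.15, limma adjusted p = 0.0309). Nmnat3, its mitochondrial relative, had the most negative difference there (-1.17, adjusted p = 0.129), and was called lower with the replicate block (0.0494), which also called Nmrk1, a nicotinamide riboside kinase, higher (0.68, adjusted p = 0.0497). The other deltex genes Dtx1 to Dtx4 gave 0 of 4 called by limma, with 1 lower and 1 higher at an unadjusted p under 0.05 and 1 in the methods' t-test, and ran from -1.51 (Dtx3) to 0.56 (Dtx2). With the replicate block, Dtx3 was called lower (limma adjusted p = 0.0488).

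Of 13 genes of interferon signalling, 12 had a negative difference, 4 were called lower and 0 higher, and the median was -0.84. The called genes were Ifnb1, the interferon beta gene itself, Ifngr1, a chain of the interferon gamma receptor, and the transcription factors Irf9 and Irf3. Ifnb1 had the deepest difference of these genes and gave 479, 1058 and 862 with GapmeR Ntep against 6055, 4440.4 and 2857, without overlap (log2 difference -2.49, SE 0.40, limma adjusted p = 0.0335). Irf9, the DNA-binding part of a complex with Stat2, fell by 1.03 on the log2 scale (adjusted p = 0.03), Ifngr1 by 1.34 (0.0376) and Irf3 by 0.83 (0.043). Stat2 differed by -1.46 without overlap and was not called without pairing (adjusted p = 0.056). The replicate block called 8 of the 13 genes lower and 0 higher: beside the 4 above, these were Stat2 (limma adjusted p = 0.0399), the kinases Jak2 (0.0482) and Tyk2 (0.0337), and Irf7 (0.0443). Of all 30990 tested probes, the block called 4292. The largest value upwards was that of Ifngr2, the other chain of the gamma receptor, at 0.04. The methods' t-test called 2 of the 13 after adjustment and 7 at an unadjusted p under 0.05.

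**Figure D5:**
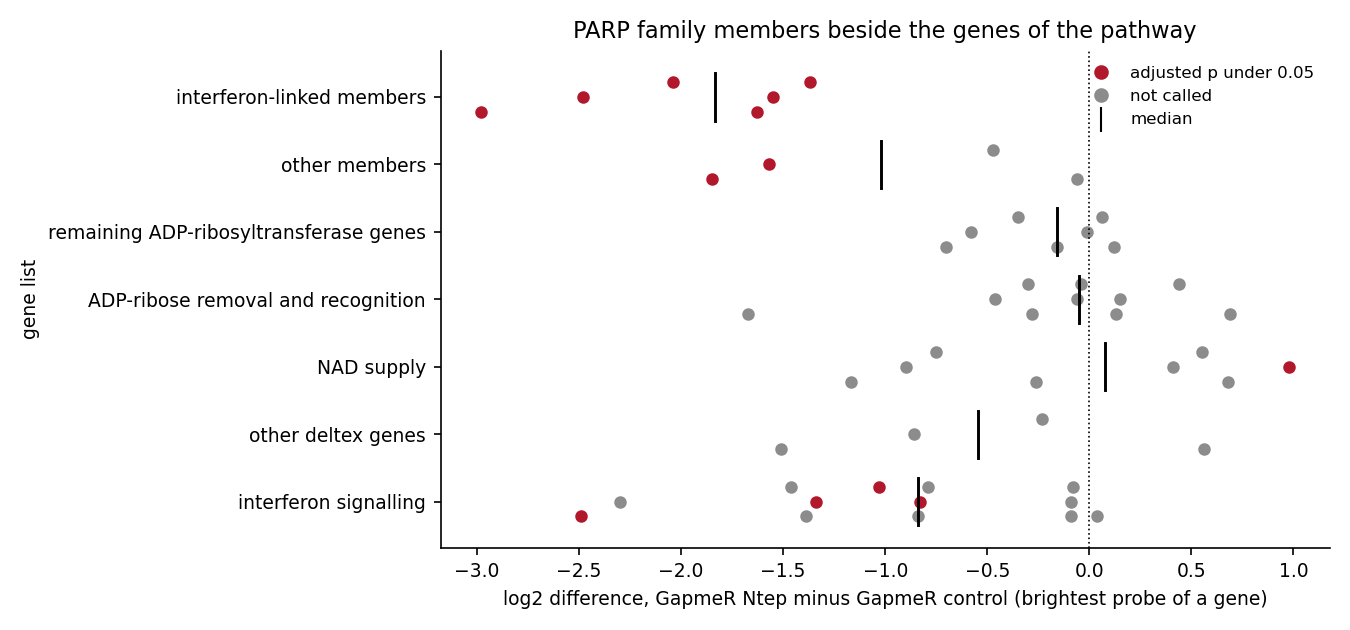
Log2 difference (GapmeR Ntep minus GapmeR control) of every tested gene of 7 lists, by its brightest probe, in red where the adjusted p was under 0.05, with a bar at the median of the list; calls are those of the unpaired fit. Medians are -1.84 for the interferon-linked members, -1.02 for the other members, -0.84 for interferon signalling and -0.54 to 0.07 for the remaining lists.

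For Parp9, Parp14 and Parp3, the genes with the most similar profile were looked up among 13418 genes by Pearson's r of log2 values over the 6 arrays, a description in which the difference between the groups carries most of the likeness. The closest to Parp9 were Dgka, a diacylglycerol kinase (r = 0.9992), Cc2d2a, a ciliary protein (0.9979), and Mboat2, a lysophospholipid acyltransferase (0.9978). Mboat2 was dim, with means of 34.5 with GapmeR Ntep and 93.5 with GapmeR control, and passed the filter through the control group alone. The closest to Parp14 were Dnajc1 (0.9994), Scarb2, a lysosomal membrane protein (0.9991), and Golga5, a golgin (0.9978). For Parp3 they were Prkaa1, a catalytic subunit of AMP-activated kinase (0.9970), Map3k14, the kinase of noncanonical NF-kB signalling (0.9970), and Itch, a ubiquitin ligase (0.9963). A high r does not mean a difference of like size. Dnajc1 (-0.69, limma adjusted p = 0.0744) and Prkaa1 (-0.54, 0.113) were not called, whereas the others were called lower. None of the 9 was a member or on the interferon signalling list. Both lists hold few of the 13418 genes, so this outcome was likely for any 9 genes, and nothing is drawn from it.

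The labelled cell type was checked against fibroblast markers. Col1a1, Col1a2, Col3a1, Fn1, Vim, Pdgfra, Pdgfrb, Thy1 and S100a4 were well above background on all 6 arrays, and Lum was on 1. None of the 9 tested markers was called by limma, 2 were lower at an unadjusted p under 0.05 in limma and 2 in the methods' t-test, and their differences ran from -0.95 (Pdgfra) to 0.05 (Thy1). The summed signal with Lum was 555675 to 737369 with GapmeR Ntep against 808084 to 891112. Of 10 macrophage markers, Ptprc, Adgre1 and Tyrobp were not well above background on any array. Of the 7 tested, 1 was called higher (Cd68, a lysosomal protein, log2 difference 1.21, limma adjusted p = 0.0287), 4 were higher and 0 lower at an unadjusted p under 0.05, and the median was 1.11. The methods' t-test called 0 after adjustment and 3 at an unadjusted p under 0.05. Csf1r, the receptor of a macrophage growth factor, had the largest difference upwards (3.19, with overlap, adjusted p = 0.151) and Aif1 the most negative (-1.28, adjusted p = 0.276). With the replicate block, Csf1r (limma adjusted p = 0.0387), Itgam (0.0397), Cd14 (0.0332) and Cd68 were called higher and Aif1 lower (0.0421). These calls stand among 4292 of all 30990 tested probes. The summed signal of all 10 was 43182 to 75622 against 21228 to 27942. Its largest part was the brightest Itgam probe, with 45777, 19443 and 30885 against 14655, 10652 and 12952. The second probe of Itgam differed by -0.03 (limma adjusted p = 0.956), that of Csf1r by 0.44 (0.267) and that of Cd68 by 0.68 (0.143). Of 7 lymphoid and dendritic cell markers, Cd79a, Klrb1c and Cd8a were not well above background on any array. Of the 3 tested, 0 were called and 0 had an unadjusted p under 0.05 in limma or in the methods' t-test. Their differences ran from 0.26 (Cd3e) to 0.87 (Itgax), and the summed signal of all 7 was 26695 to 49521 against 28352 to 34460.5. The Itgax value came from the GapmeR Ntep array of experiment 3 (123), with every other array at the floor set for low values. Nearly all of the sum was the brightest Siglech probe, with 49289, 26483 and 41196 against 34249, 28079 and 31499. The further probes of Siglech were not well above background on any array. Both the fibroblast and the macrophage sums thus differed between the groups without overlap, as 10 of the 14 member probes did. Such a sum follows its brightest probes, and the part of these markers in the results was not tested.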

How the data were processed

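RNA of 6 cultures of 3T3 cells (GapmeR Ntep or GapmeR control, 50 nM by the labels, 48 h, 3 independent experiments) was profiled on 6 one-colour Agilent arrays. The authors extracted spots with Agilent Feature Extraction 10.7.3.1 and deposited, per array, intensities with the background subtracted, in linear units and not normalized across arrays. Their deposited table of quantile-normalized intensities, with low values set to 20, served as an alternative.

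After averaging the spots of a probe, the 6 arrays were brought to the same distribution (quantile normalization) and any value below 20 was raised to 20. The groups were compared on the log2 scale without pairing in limma 3.58.1 (R 4.3.3). The test took in the 30990 probes whose brighter group averaged 50 or more, with Benjamini-Hochberg adjustment over them. All p-values are two-sided. The floor of 20 and the limit of 50 were the study's own, as were a fold change of 2 and an unadjusted p under 0.01; the methods' t-test was run as an alternative. The brightest probe over all 6 arrays stood for a gene. Coordinates of probes are those of mm9 in the files, and promoter sequences are from RefSeq (GRCm38.p6). Tables and figures were made in Python 3.11.15 with pandas 2.3.3, numpy 2.4.6 and matplotlib 3.10.9, and the fit was tested on simulated data.

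Every member is named with every probe. Of the other lists, genes called after adjustment, the largest rise and fall, Tiparp, Zc3hav1, Tnks, Stat2 and Irf9 are named. Genes that only the replicate block called were added after their values were seen. Genes of 2 lists are not reported here and were left out of their counts. Members, lists and this rule were chosen with earlier results of these data known, so they support nothing independently. Replicate numbers follow the study's supplement, which pairs arrays by culture day. Deviations from the group means correlated at 0.466, 0.3 and 0.254 between arrays of equal number and at -0.327 to 0.126 between all others. Deviations of a group's arrays from their own mean are not independent, so these correlations cannot settle the pairing alone. With 3 arrays per group, their number limits the precision. Alternatives covered normalization, background correction, floors, filters, flagged spots, a replicate block, array weights, trend, and the omission of each array.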

Additional observations from a re-analysis of the deposited data

How the results depend on the processing

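Of the 14 member probes, 9 were called in the main setting. The count was 1 without the filter on dim probes, where 55681 probes share the adjustment, and 1 with the methods' t-test, in both cases the AK090152 probe of Dtx3l. It ranged from 0 to 9 when 1 array was left out. Under the other settings 7 to 10 probes were called. The count past a fold change of 2 and an unadjusted p under 0.01 was 9 in every setting except normexp background correction, where it was 8. Over all tested probes, in either direction, it was 2520 in the main setting and 1457 to 4506 in the others. The median difference was -1.90 to -1.69 for the interferon-linked members and -1.16 to -0.95 for the others, and -1.97 to -1.77 and -1.25 to -0.88 when 1 array was left out. The brightest Parp4 probe ran from -0.25 to 0.10 when 1 array was left out and its second probe from -0.10 to 0.05. The second probe also changed sign under 75th percentile scaling (0.08), normexp background correction (0.01) and array weights (0.02); the cause was not tested. With the replicate number as a block, the same 9 probes were called, and no call of a member changed; calls of other genes that it changed stand beside their results. Over all tested probes, 1642 were called in the main setting, 4292 with the block, 285 with the methods' t-test, 10260 with array weights, 564 without the filter, 2557 with normexp, 2487 with the test limited to probes that every array shows well above background, 2707 with an intensity trend, 962 without normalization between arrays, and 0 to 1403 when 1 array was left out.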

Other observations

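Probes of the same gene also gave unlike values outside the members. The brightest Tnks2 probe (tankyrase 2, a poly(ADP-ribose) polymerase) gave 139900.4, 166980.1 and 128443 with GapmeR Ntep against 146563, 138158 and 129986 (log2 difference 0.06, limma adjusted p = 0.847). Its second probe gave 50847, 34926 and 35138 against 16468, 13039 and 12853, without overlap, and rose by 1.5 on the log2 scale (SE 0.23, limma adjusted p = 0.0299). For Irf1, an interferon regulatory factor, the brightest probe differed by -0.84 without being called (adjusted p = 0.0835), and the second probe, which was at the floor of 20 on all GapmeR Ntep arrays and well above background on 2 of 6 arrays, was called lower (adjusted p = 0.0468).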
